A study of Mus musculus with 12 samples.

Results

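Astrocytes were followed in mouse optic nerve through 35 genes, 20 of astrocytes in their resting, supporting state (here homeostatic) and 15 that astrocytes raise after injury or inflammation (here reactive). They are a list of names taken from what is known of the cell type, and each was found by its symbol in a table of 35275 genes. The list was chosen with earlier results of these data known, so shares of its genes called are descriptions and not independent tests. Gfap was kept among the homeostatic genes, although reactive astrocytes raise it too. All 35 had enough counts to be tested, among 18344 genes that had. The mice carried an NF1 genotype, a model of neurofibromatosis type 1, and this genotype was shared by every group, controls included. The sources used here do not give the allele, the strain, a Cre driver, the age, the sex, the dose or the schedule. Poly(A) RNA of optic nerve was sequenced in 3 libraries after carboplatin, a platinum drug that cross-links DNA, in 3 after selumetinib, an inhibitor of MEK kinases, and in 6 after phosphate-buffered saline (PBS), the control. The title of the series names a loss of oligodendrocytes after carboplatin, and the genes of the other large glial class of the same nerve are described here.

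Astrocytes of the optic nerve take up glutamate and potassium, couple to each other through gap junctions, line blood vessels with end-feet rich in the water channel AQP4, and pass metabolites to axons. After injury they become reactive: they build more intermediate filament protein (GFAP, vimentin) and switch on secreted proteins such as lipocalin 2 and the protease inhibitor SERPINA3N, in part through cytokines of the interleukin 6 family, which signal through gp130 and the transcription factor STAT3. Astrocytes are also the main source of angiotensinogen in the brain, and their maturation and metabolism respond to glucocorticoid hormones.

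The 3 genes called in carboplatin against PBS are shown by the 250 bases before their start of transcription in RefSeq (build GRCm38.p6), since each was called there and against selumetinib too. The windows are on the minus strand of chromosome 8 for Agt (chr8:124569707-124569956), the plus strand of chromosome 7 for Htra1 (chr7:130935953-130936202) and the plus strand of chromosome 6 for Aldh1l1 (chr6:90550543-90550792). The gene coordinates given below are from another annotation, GENCODE, whose starts differ for 2 of these genes. There Aldh1l1 spans 90486427 to 90600203, so its window lies inside the gene. Htra1 starts at 130936111 there, so the end of its window lies inside the gene. Each is printed 5′ to 3′ on the strand of its gene, and capitals mark matches to the motifs searched.
Agt: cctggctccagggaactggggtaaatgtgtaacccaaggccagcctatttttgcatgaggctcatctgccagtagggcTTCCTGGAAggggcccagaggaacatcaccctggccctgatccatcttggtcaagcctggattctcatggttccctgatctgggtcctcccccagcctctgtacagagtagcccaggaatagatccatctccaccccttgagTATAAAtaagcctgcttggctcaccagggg
Htra1: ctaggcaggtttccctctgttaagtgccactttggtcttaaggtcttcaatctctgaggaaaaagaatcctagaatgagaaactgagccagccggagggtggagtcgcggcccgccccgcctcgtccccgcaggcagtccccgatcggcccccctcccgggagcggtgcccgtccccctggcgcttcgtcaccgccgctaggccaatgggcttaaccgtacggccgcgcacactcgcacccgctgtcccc
Aldh1l1: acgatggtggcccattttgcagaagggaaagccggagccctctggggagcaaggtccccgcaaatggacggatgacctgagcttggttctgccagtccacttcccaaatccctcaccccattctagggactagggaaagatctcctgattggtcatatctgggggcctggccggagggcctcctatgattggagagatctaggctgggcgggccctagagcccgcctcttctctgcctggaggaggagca
On both strands 6 motifs were searched: a glucocorticoid response element (AGAACA and TGTTCT 3 bases apart), a STAT site (TTCNNNGAA), an AP-1 site (TGANTCA), an NFI site (TTGGC and GCCAA 5 bases apart), a SOX site (AACAAT) and a TATA box (TATAAA). None of the matches overlapped. Agt held a STAT match, TTCCTGGAA, beginning 172 bases before the start, and a TATA match beginning 30 bases before it. Htra1 and Aldh1l1 held 0 matches in this window. Of 32851 mouse promoters of the same length, 7.02% held the STAT letters, 12.4% the TATA letters, 6.75% the AP-1 letters, 9.42% the SOX letters, 0.00913% the glucocorticoid letters and 0.0365% the NFI letters. A match is a stretch of letters and was not tested as a binding site.

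The libraries held 21793052 to 33375754 counts, and levels are CPM, counts divided by the TMM-scaled size of each library. The homeostatic genes were detected in all 12 libraries, with Gfap, Slc1a3, Aqp4, Gja1 and Aldoc all at or above 93.2 CPM in each, and the labels call the cells only nerve cells. PBS 1 stood apart: its 8 skeletal muscle markers summed to 51439 CPM, against 9.19 to 239 CPM in PBS 2 to 6. Selumetinib 1 and 2 stood apart through 8 neuron markers, which summed to 1723 and 1839.8 CPM, against 312 CPM in selumetinib 3 and 54.7 to 538 CPM in PBS. The 10 photoreceptor and pigment epithelium markers summed to 813, 539 and 1571 CPM in carboplatin 1 to 3, against 3.03 to 137 CPM in PBS. The labels do not say that libraries came from separate animals, so a p-value speaks only of how much these libraries vary, some of which may be technical. In bulk RNA, fewer astrocytes and less RNA per astrocyte cannot be told apart.

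In PBS nerve, levels per kilobase of exon spanned from Gfap, the filament protein that defines astrocytes, at a median of 1602 CPM per kb (range 749.7 to 2239, n = 6), to Steap4, a metalloreductase, at 0.854 (range 0.558 to 10.6). The calcium-binding protein gene S100b, which oligodendrocytes express too, came next at 729 CPM per kb (range 353 to 849.6), and the glutamine synthetase gene Glul after it at 549 (321 to 644). Over the 6 PBS libraries the range of S100b overlapped those of Gfap and Glul, whereas the ranges of Gfap and Glul did not overlap. Within each of the 6 PBS libraries the order was Gfap, S100b, Glul. Vim, which encodes vimentin and is also made by vessel and meningeal cells, had 316 CPM per kb, the highest of the reactive genes, close to Atp1b2, a sodium pump subunit, at 305 and Mlc1, a membrane protein of astrocyte junctions, at 278. Agt, which encodes angiotensinogen, followed at 144 CPM per kb, and Aldh1l1, a folate enzyme widely used to mark astrocytes, was far lower at 15.3 (6.77 to 19.7). The lowest levels were those of the reactive genes Osmr (2.02 CPM per kb), Ptx3 (1.16), Lcn2 (1.05) and Steap4.

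Of the 20 homeostatic genes, 18 had their lowest PBS value in PBS 1, and 16 had their lowest value of all 12 libraries there. The exceptions within PBS were Htra1 and Fgfr3, both lowest in PBS 3. The homeostatic genes summed to 6643 CPM in PBS 1, against 15630.2 to 19263 CPM in PBS 2 to 6. The reactive genes summed to 2885 CPM in PBS 1, within the 1830.0 to 3294 CPM of PBS 2 to 6, but 54.8% of that sum was Emp1, an epithelial membrane protein gene that muscle and other tissues express. Emp1 had 1582 CPM in PBS 1, against 46.3 to 337 CPM in PBS 2 to 6. The calls against PBS and a few of the fold changes are therefore given also without PBS 1. The median log2 fold changes, the counts of groups apart and most fold changes are given with PBS 1 only. The part of muscle RNA in the results that rest on the controls was not tested.

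**Figure D1:**
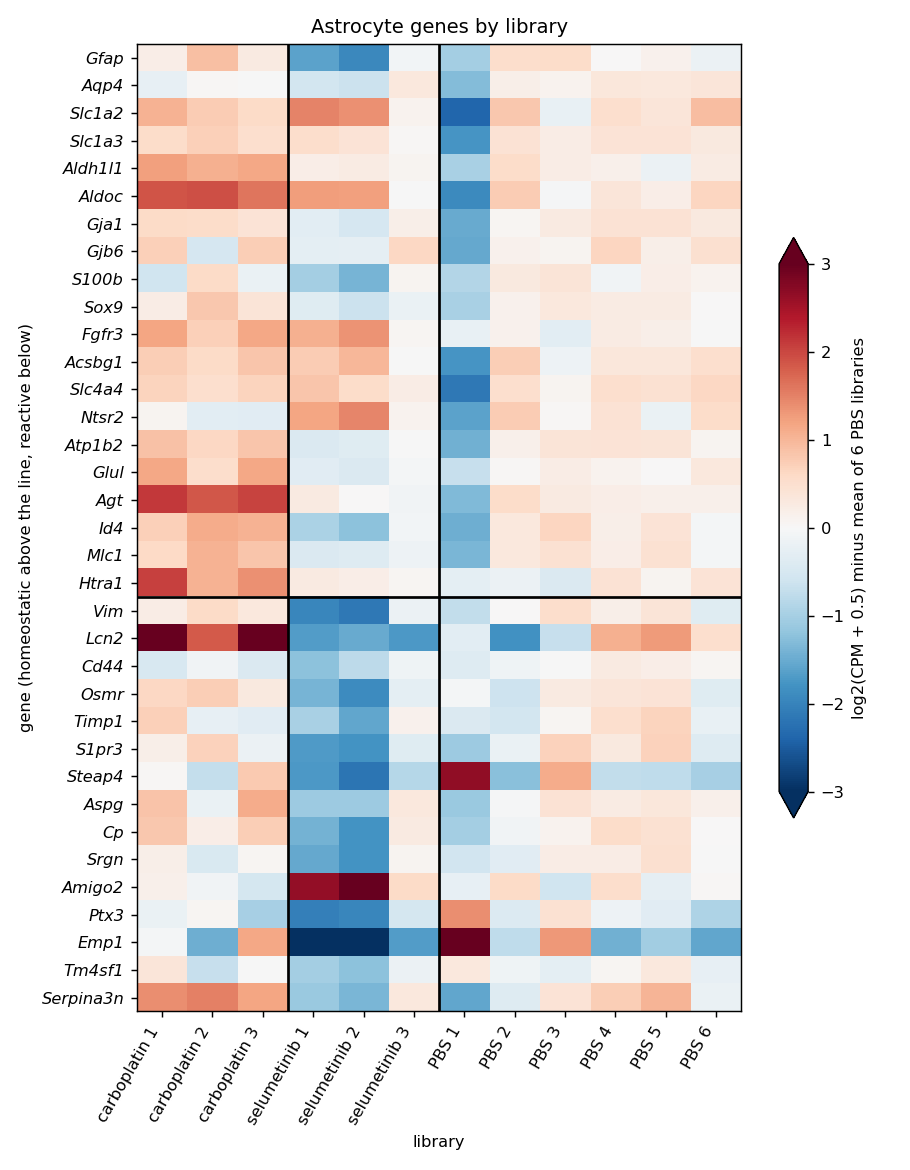
Each of the 35 genes (lines down the page, homeostatic above reactive) is shown in each of the 12 libraries (across) as log2(CPM + 0.5) minus the mean of the 6 PBS libraries, on a colour scale that ends at 3 in both directions. Among the reactive genes selumetinib 1 and 2 are low for all except Amigo2, and PBS 1 is low for most homeostatic genes and high for Emp1.

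Carboplatin against PBS showed higher levels of a few homeostatic genes and no called change of a reactive gene. Of the 20 homeostatic genes, 3 rose and 0 fell (edgeR quasi-likelihood test, Benjamini-Hochberg adjusted p under 0.05 over all genes), where 2.09% of all genes were called, 1.57% higher and 0.518% lower. The genes were Agt, Htra1 and Aldh1l1. Of the 15 reactive genes, 0 were called by edgeR; 2 had an unadjusted p under 0.05, both higher, as had 8 homeostatic genes (16.5% of all genes in either direction), DESeq2 called 1 higher (8.99% of all genes called) and limma voom called 4 higher and 1 lower (29.8% of all genes called). Of the 20 homeostatic genes DESeq2 called 6 higher and 0 lower, and limma voom called 9 higher and 1 lower, Aqp4. The median log2 fold change was 0.53 over the homeostatic genes and 0.05 over the reactive genes, beside -0.11 over all genes tested. In 10 homeostatic genes and 2 reactive genes every carboplatin library lay above every PBS library, as 6.97% of all genes did; in 0 did every carboplatin library lie below, as 5.23% of all genes did. The SE given with each log2 fold change is derived from the test, as its size divided by the square root of the F statistic.

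Of the 3 called genes, the 2 that encode secreted proteins had the larger log2 fold changes. Agt (ENSMUSG00000031980, chromosome 8, 124556534 to 124569706) encodes angiotensinogen, the precursor of the angiotensin peptides. It had 1055, 872 and 979 CPM in carboplatin 1 to 3, 288, 244 and 223 CPM in selumetinib 1 to 3 and 96.6, 273 and 353 CPM as the lowest, median and highest of the 6 PBS libraries. All carboplatin libraries were above every library of the other groups, and selumetinib lay within the PBS range. Agt averaged 969 ± 92.1 CPM in carboplatin (SD, n = 3) and 258 ± 85.5 CPM in PBS (SD, n = 6), a log2 fold change of 1.91 ± 0.30 (adjusted p = 0.0103, edgeR). Without PBS 1 the log2 fold change was 1.72 (adjusted p = 0.000116), and without carboplatin 3 it was 1.91 (adjusted p = 0.0506), not under the threshold of 0.05. Htra1 (ENSMUSG00000006205, chromosome 7, 130936111 to 130985660) encodes a secreted serine protease that cleaves matrix proteins and growth factors. It had 337, 167 and 209.5 CPM in carboplatin 1 to 3, 98.4, 93.4 and 84.5 CPM in selumetinib 1 to 3 and 59.8, 78.7 and 109 CPM as the lowest, median and highest of the 6 PBS libraries. Carboplatin 1 was the highest library, and all 3 carboplatin libraries lay above both other groups, a log2 fold change over PBS of 1.51 ± 0.24 (adjusted p = 0.0117, edgeR). Without carboplatin 1 it was 1.17 (adjusted p = 0.0634). S100b, the calcium-binding protein, had 639.9, 1456 and 840.2 CPM in carboplatin 1 to 3, against a PBS median of 1082 CPM (range 524 to 1261), and the groups overlapped.

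Metabolic enzymes followed. Aldh1l1 (ENSMUSG00000030088, chromosome 6, 90486427 to 90600203) had 144, 128 and 137 CPM in carboplatin 1 to 3, 70.2, 72.3 and 64.2 CPM in selumetinib 1 to 3 and 30.6, 68.9 and 89.0 CPM as the lowest, median and highest of the 6 PBS libraries. The carboplatin libraries lay close together above all others, with a log2 fold change over PBS of 1.10 ± 0.25 (adjusted p = 0.0461, edgeR). This call was near the threshold: it held in 2 of 12 fits that each left out 1 library, those without PBS 1 (0.94, adjusted p = 0.00304) and without PBS 2 (1.23, adjusted p = 0.0438), and was lost without any 1 of the other 10 libraries, with adjusted p up to 0.177 and log2 fold changes of 1.05 to 1.15. Exons of Aldh1l1 overlap those of Gm15756 on the opposite strand and of Gm45901 on the same strand; whether counting used the strand is not known here, and strand would not separate the second overlap. Aldoc, the aldolase of astrocyte glycolysis, had 1307, 1358 and 1077 CPM in carboplatin 1 to 3, against 93.2, 429.9 and 598 CPM as the lowest, median and highest of the 6 PBS libraries. All carboplatin values were higher, but Aldoc was not called with all libraries (log2 fold change 1.61 ± 0.45, adjusted p = 0.0977, edgeR), and it was called without PBS 1. Acsbg1, a fatty acid CoA ligase, had 179 to 213 CPM in carboplatin, against 34.7 to 200.2 CPM in PBS, and the groups overlapped.

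Among the genes of glutamate handling, Glul, which makes glutamine from glutamate and is also made by oligodendrocytes, had 3855, 2495 and 3836 CPM in carboplatin 1 to 3, against 1067, 1825 and 2139 CPM as the lowest, median and highest of the 6 PBS libraries. Every carboplatin library was above every PBS library, with a log2 fold change of 0.94 ± 0.23 (adjusted p = 0.0663, edgeR), not called with all libraries and called without PBS 1. The glutamate transporter genes Slc1a2 and Slc1a3 had no unadjusted p under 0.05. Slc1a2 (GLT-1) had 1028, 839 and 736 CPM in carboplatin 1 to 3, against 94.2, 671 and 948 CPM as the lowest, median and highest of the 6 PBS libraries. Slc1a3 (GLAST) had 800.2, 899.7 and 781 CPM in carboplatin 1 to 3, against 162, 700.0 and 740.1 CPM as the lowest, median and highest of the 6 PBS libraries. Slc1a2 overlapped between the groups, whereas each carboplatin library was above each PBS library for Slc1a3.

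The water, ion and pH genes were mixed. Aqp4, the end-foot water channel, had 425, 523 and 504 CPM in carboplatin 1 to 3, against 205, 599.7 and 650.1 CPM as the lowest, median and highest of the 6 PBS libraries. All carboplatin libraries lay below PBS 2 to 6 and above PBS 1. Mlc1 had 979, 1336 and 1165 CPM in carboplatin 1 to 3, against 252, 779 and 892 CPM as the lowest, median and highest of the 6 PBS libraries, and its log2 fold change of 0.72 ± 0.32 was not called (adjusted p = 0.288, edgeR), but was called without PBS 1. Atp1b2 had 1873, 1571 and 1809.7 CPM in carboplatin 1 to 3, against 377, 1244 and 1367 CPM as the lowest, median and highest of the 6 PBS libraries, with every carboplatin library higher. The bicarbonate transporter gene Slc4a4 had 284 to 317 CPM in carboplatin, against 45.0 to 307 CPM in PBS. The gap junction genes Gja1 (connexin 43; 597 to 668 CPM in carboplatin, 158 to 612 CPM in PBS) and Gjb6 (connexin 30; 99.0 to 234 CPM in carboplatin, 48.4 to 221 CPM in PBS) both overlapped. The lowest carboplatin library for Gja1, at 597 CPM, was below PBS 4 and PBS 5.

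Among the regulators and receptors, Fgfr3, a fibroblast growth factor receptor, had 165, 118 and 162 CPM in carboplatin 1 to 3, 151, 183 and 75.2 CPM in selumetinib 1 to 3 and 57.9, 75.3 and 85.1 CPM as the lowest, median and highest of the 6 PBS libraries. Carboplatin lay above PBS in every library, with a log2 fold change of 1.03 ± 0.24 (adjusted p = 0.0559, edgeR). Id4, an inhibitor of basic helix-loop-helix factors, had 439.5, 579.6 and 552 CPM in carboplatin 1 to 3, against 96.8, 318 and 419 CPM as the lowest, median and highest of the 6 PBS libraries, also with the groups apart (log2 fold change 0.83 ± 0.38, adjusted p = 0.299, edgeR). Neither was called with all libraries, and Fgfr3 was called without PBS 1. Sox9, the transcription factor of astrocyte nuclei, had 115 to 174 CPM in carboplatin, against 50.1 to 124 CPM in PBS, and the neurotensin receptor gene Ntsr2 had 48.0 to 64.8 CPM in carboplatin, against 19.5 to 104 CPM in PBS, both overlapping. Gfap had 7464, 12076 and 7736 CPM in carboplatin 1 to 3, against 3162, 6758 and 9442 CPM as the lowest, median and highest of the 6 PBS libraries. Carboplatin 2 was above all PBS libraries and carboplatin 1 and 3 were below PBS 2 and 3.

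Of the reactive genes, Lcn2 and Serpina3n were higher in every carboplatin library, and neither was called with all libraries. Lcn2 (ENSMUSG00000026822, chromosome 2, 32384633 to 32388252), a secreted protein that binds iron siderophores, had 44.6, 10.1 and 23.7 CPM in carboplatin 1 to 3, 0.425, 0.533 and 0.385 CPM in selumetinib 1 to 3 and 0.335, 2.76 and 6.60 CPM as the lowest, median and highest of the 6 PBS libraries. The carboplatin libraries differed from each other widely, and the lowest of them was above the highest PBS library. The log2 fold change of Lcn2 over PBS was 3.01 ± 0.70 (adjusted p = 0.0547, edgeR), past the threshold without PBS 1 (adjusted p = 0.0311) or without PBS 2 (adjusted p = 0.0438). Neutrophils also make Lcn2: the 8 neutrophil markers summed to 18.7, 5.18 and 61.4 CPM in carboplatin 1 to 3 and to 21.6 to 90.3 CPM in PBS, and none was at 0 in every library of a group. Serpina3n had 475, 516 and 414 CPM in carboplatin 1 to 3, against 60.9, 198 and 370.4 CPM as the lowest, median and highest of the 6 PBS libraries, a log2 fold change of 1.15 ± 0.50 (adjusted p = 0.28, edgeR).

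The other 13 reactive genes overlapped between carboplatin and PBS. Vim had 1631, 2097 and 1745 CPM in carboplatin 1 to 3, against a PBS median of 1498 CPM (range 842 to 2019). Osmr, the oncostatin M receptor, had 35.2, 38.3 and 27.9 CPM in carboplatin 1 to 3, against a PBS median of 24.4 CPM (range 14.6 to 30.0), and Cd44, the hyaluronan receptor, had 29.2, 37.5 and 29.9 CPM in carboplatin 1 to 3, against a PBS median of 41.4 CPM (range 30.9 to 49.1). Carboplatin 1 and 3 were below every PBS library for Cd44. S1pr3, a sphingosine phosphate receptor, ran over 119.7 to 219 CPM in carboplatin, against 63.0 to 217 CPM in PBS, and Timp1, a metalloproteinase inhibitor, had 8.28, 4.00 and 3.74 CPM in carboplatin 1 to 3, against a PBS median of 4.58 CPM. Cp, the copper ferroxidase ceruloplasmin, ran over 240.1 to 364 CPM in carboplatin, against 102 to 305 CPM in PBS, and the asparaginase gene Aspg over 30.5 to 77.0 CPM in carboplatin, against 15.9 to 47.9 CPM in PBS. Steap4, Ptx3 (a pentraxin), Emp1 and Tm4sf1 (a membrane protein of vessels) each had their highest PBS value in PBS 1. Steap4 ran over 2.77 to 8.85 CPM in carboplatin, against 1.76 to 33.5 CPM in PBS, and Ptx3 over 1.67 to 3.96 CPM in carboplatin, against 1.76 to 10.8 CPM in PBS. Emp1 ran over 49.5 to 309 CPM in carboplatin, against 46.3 to 1582 CPM in PBS, and Tm4sf1 over 35.3 to 74.0 CPM in carboplatin, against 46.6 to 71.7 CPM in PBS. Srgn, a proteoglycan of blood cells and endothelium, ran over 42.3 to 66.0 CPM in carboplatin, against 38.9 to 81.5 CPM in PBS, and Amigo2, an adhesion protein, over 5.64 to 9.40 CPM in carboplatin, against 5.35 to 12.7 CPM in PBS.

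**Figure D2:**
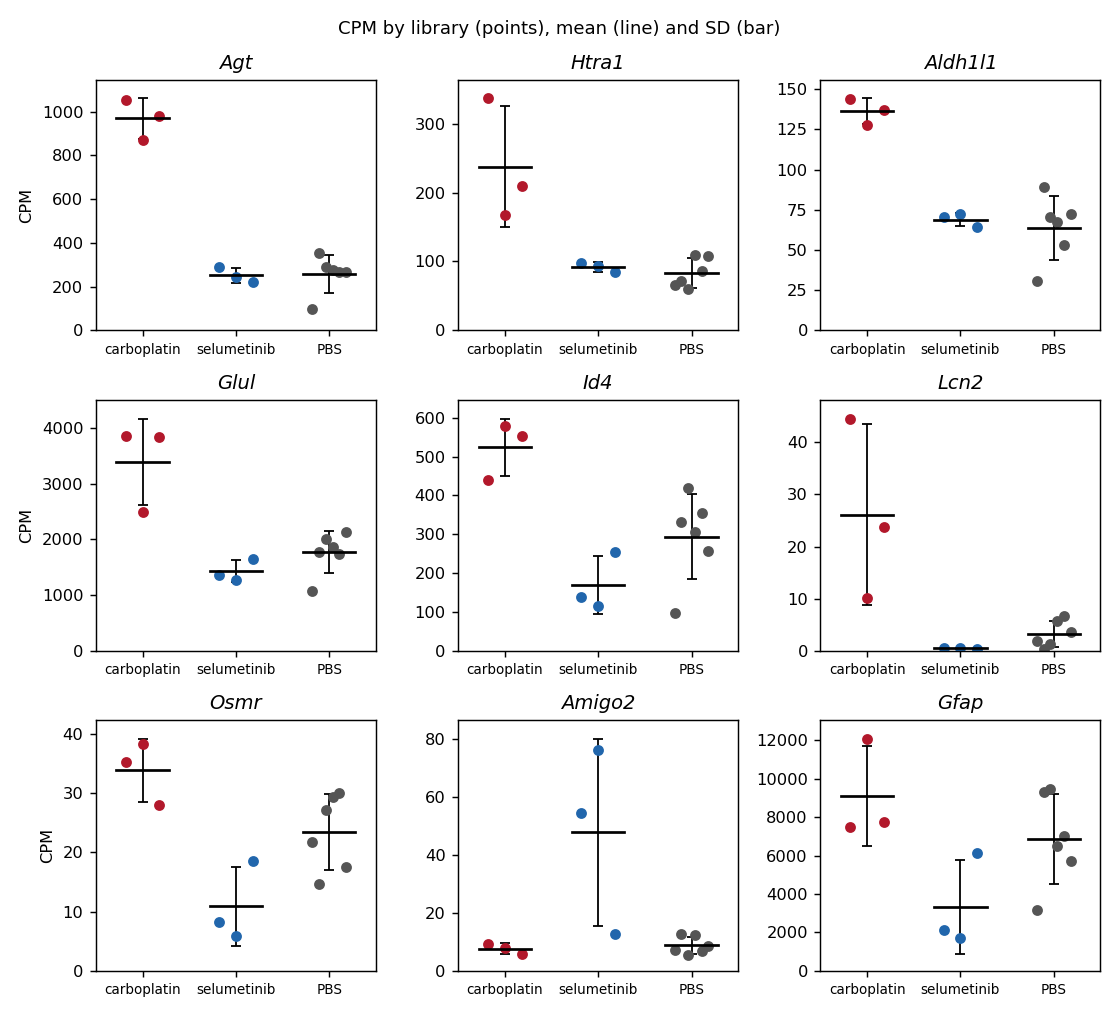
CPM (vertical axis, linear, from 0) of 9 genes in carboplatin, selumetinib and PBS; points are libraries, the line is the mean and the bar is 1 SD. For Agt, Htra1, Aldh1l1, Glul and Id4 the 3 carboplatin points sit above all points of the other groups, and for Amigo2 selumetinib 1 and 2 sit at 54.3 and 76.3 CPM, above every other library.

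The counts for carboplatin against PBS moved with single libraries and with the choice of controls. Leaving out PBS 1 gave 7 homeostatic genes (Agt, Htra1, Aldh1l1, Aldoc, Fgfr3, Glul and Mlc1) and 1 reactive gene (Lcn2), all higher, in a fit that called 10.7% of all genes. Leaving out carboplatin 1 or carboplatin 3 gave 1 homeostatic gene each (Agt without carboplatin 1, Htra1 without carboplatin 3), where 0.634% and 0.389% of all genes were called. With PBS 1 to 3 as the controls 0 members were called, and with PBS 4 to 6 the calls were 5 homeostatic genes (Agt, Htra1, Aldh1l1, Aldoc and Glul) and Lcn2; all genes called numbered 7 (0.0387%) with PBS 1 to 3 and 2202 (12.3%) with PBS 4 to 6. The log2 fold change of Agt was 1.95 with PBS 1 to 3 as controls and 1.85 with PBS 4 to 6, and that of Htra1 was 1.83 with PBS 1 to 3 and 1.24 with PBS 4 to 6. Without carboplatin 1 and 3, the libraries with the most photoreceptor marker RNA, 0 members were called among 14 genes, and the log2 fold changes were 1.76 for Agt, 1.01 for Htra1 and 1.02 for Aldh1l1. With 1 carboplatin library left, that fit takes its spread from the other groups.

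Other lists were counted for comparison: other astrocyte and reactive genes, and genes of pathways, which were not chosen as astrocyte markers. These lists too were chosen with earlier results of these data known. In carboplatin against PBS 2.09% of all genes were called, and 16.5% had an unadjusted p under 0.05 in either direction. Of 36 other astrocyte genes, 3 rose with carboplatin and 0 fell (median log2 fold change 0.24). They were Fam107a, an actin-binding protein that glucocorticoids raise, with 969.6 ± 90.5 CPM in carboplatin and 127 ± 49.3 CPM in PBS (log2 fold change 2.93 ± 0.40, adjusted p = 0.00454, edgeR), Paqr6, a membrane progestin receptor (1.05 ± 0.19, adjusted p = 0.0183), and Sdc4, a heparan sulfate proteoglycan (0.88 ± 0.20, adjusted p = 0.0451). Of 21 other reactive genes 20 were tested, and 2 rose and 0 fell, with a median of -0.18. They were Fkbp5, a co-chaperone that glucocorticoids raise (3.20 ± 0.37, adjusted p = 0.00189), and Slc10a6, a steroid sulfate transporter (3.03 ± 0.67, adjusted p = 0.0432), a gene of low counts. Of 14 genes of the gp130 and STAT3 pathway 12 were tested and 1 rose, Cntfr, the receptor for ciliary neurotrophic factor, with 128 ± 5.27 CPM in carboplatin and 77.2 ± 9.49 CPM in PBS (0.73 ± 0.12, adjusted p = 0.0126). Of 8 other genes of the angiotensin system, 7 were tested and 0 were called by edgeR; 2 had an unadjusted p under 0.05, both lower. Over the 7 the median log2 fold change was -1.11. In the fits that each left out 1 of the 12 libraries, Fam107a and Fkbp5 were called in all 12, Cntfr in 10 (not without carboplatin 1 or carboplatin 3), Paqr6 in 7, and Sdc4 and Slc10a6 in 3 each. With PBS 1 to 3 as the controls 0 of these 6 genes were called.

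Markers of other cells moved with the carboplatin group. The counts below stand beside 2.09% of all genes called and 16.5% with an unadjusted p under 0.05, in either direction. Müller glia, the radial glia of the retina, share many astrocyte genes, and their 8 markers summed to 643, 947 and 666 CPM in carboplatin 1 to 3, against 310.4 to 458 CPM in PBS. Of the 7 tested, 3 rose: Car14 (log2 fold change 1.64 ± 0.23, adjusted p = 0.00537, edgeR), Kcnj14 (4.24 ± 0.83, adjusted p = 0.0265) and Rax (2.02 ± 0.43, adjusted p = 0.0383). The log2 fold change was positive in 5 of the 7 and negative in 2. Kcnj14 overlapped between the groups (9.06 ± 7.87 CPM in carboplatin, 0.477 ± 0.495 CPM in PBS). Rax was not particular to carboplatin: it had 4.07 ± 1.18 CPM there, 4.60 ± 2.77 CPM in selumetinib and 0.997 ± 0.373 CPM in PBS. All 10 photoreceptor and pigment epithelium markers had an unadjusted p under 0.05 and were higher in carboplatin, and 1 was called. Of 12 oligodendrocyte markers 1 fell and 0 rose (median log2 fold change -0.40), and their sum was 50814 to 95289 CPM in carboplatin, against 28561 to 69757 CPM in PBS. The 8 skeletal muscle markers summed to 1541, 1322 and 84.8 CPM in carboplatin 1 to 3, against 9.19 to 239 CPM in PBS 2 to 6 and 51439 CPM in PBS 1. The 8 fibroblast and meningeal markers summed to 645 to 2026 CPM in carboplatin, against 2012 to 3327 CPM in PBS. Their median log2 fold change was -1.01, 7 of 8 were negative and 0 were called by edgeR. Of these markers 3 had an unadjusted p under 0.05, all lower, and 4 lay below PBS with no overlap, as 5.23% of all genes did. The red blood cell markers, with Slc4a1 at 0 in carboplatin, summed to 12.5 to 87.0 CPM in carboplatin and 240.5 to 7891 CPM in PBS. Of these 6 markers 5 were called lower, as 0.518% of all genes were, and 6 lay below PBS with no overlap. Carboplatin 2 had the lowest sum of photoreceptor markers of its group and the highest of Müller glia markers, and its Agt was 872 CPM, the lowest of the 3 carboplatin libraries and above all PBS libraries. The part of retinal glia, of muscle and of meningeal cells in these results was not tested.

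**Figure D3:**
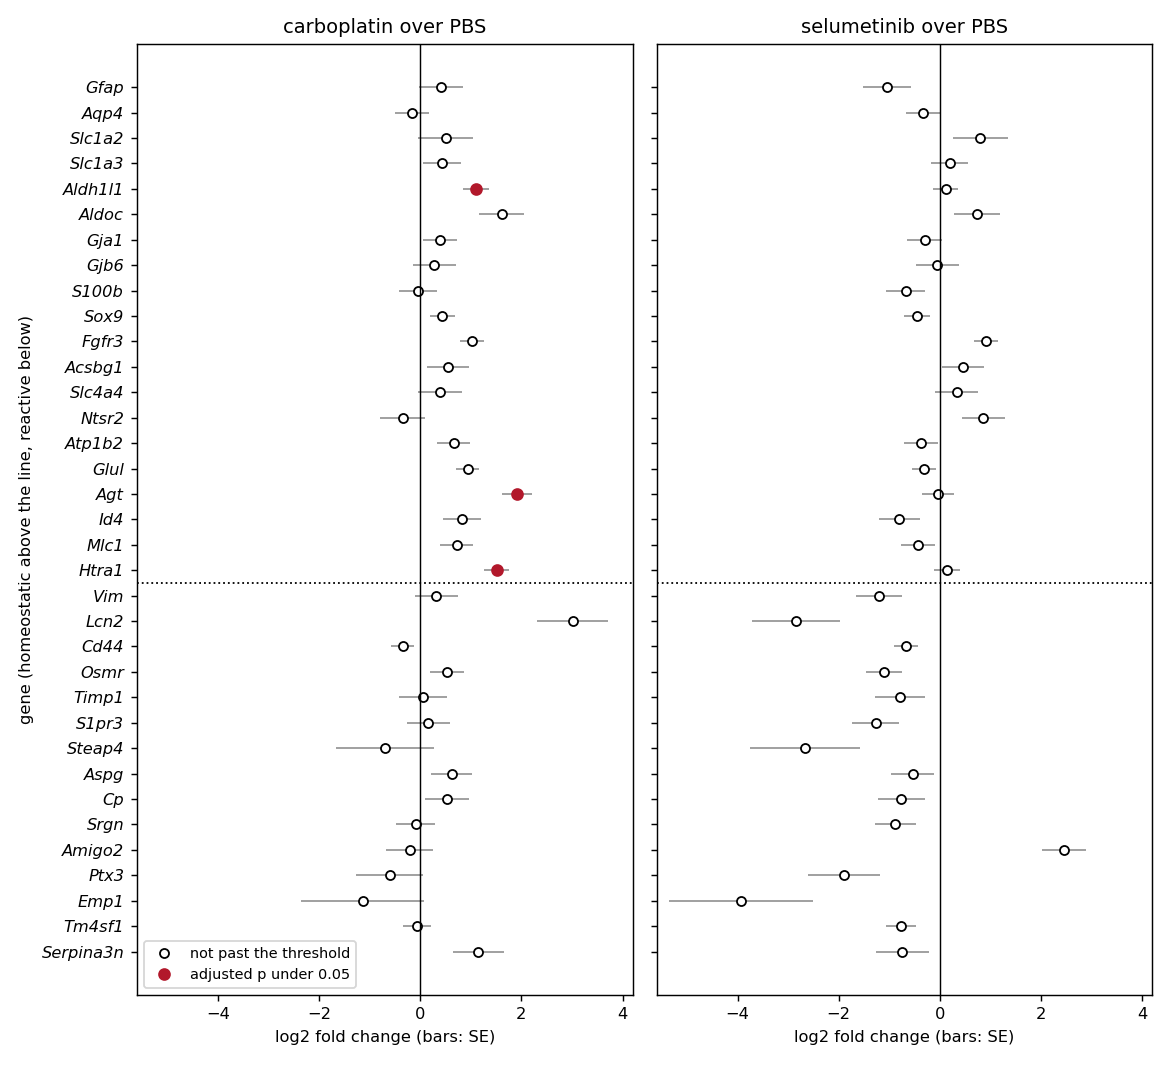
Log2 fold change (horizontal axis) of each of the 35 genes in carboplatin over PBS (left) and selumetinib over PBS (right), with bars of 1 derived SE; filled points have an adjusted p under 0.05. Agt, Htra1 and Aldh1l1 are filled at 1.91, 1.51 and 1.10 on the left, and 0 genes are filled on the right, where 14 of the 15 reactive genes lie below 0.

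In selumetinib against PBS most reactive genes had lower values, and 0 members were called, as for all 18344 genes (0%). At an unadjusted p under 0.05, 1 homeostatic gene was higher and 1 lower, and 1 reactive gene was higher and 9 lower, where 24.0% of all genes had such a p. DESeq2 called 13.7% of all genes, among them 1 homeostatic gene higher, and 1 reactive gene higher and 7 lower. Limma voom called 55.4% of all genes, among them 5 homeostatic genes higher and 10 lower, and 1 reactive gene higher and 12 lower. The median log2 fold change was -0.04 over the homeostatic genes and -0.88 over the reactive genes, beside -0.09 over all genes tested. Selumetinib and PBS did not overlap in 2 members, Amigo2 (higher) and Emp1 (lower), where 3.23% of all genes were apart upward and 2.70% downward. These values share the PBS libraries with those for carboplatin.

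The log2 fold change was negative for 14 of the 15 reactive genes and for 56.9% of all genes, and the lower values were those of selumetinib 1 and 2. The median log2 difference of the reactive genes from PBS 2 to 6 was -1.44 in selumetinib 1, -1.68 in selumetinib 2 and -0.20 in selumetinib 3. Against the range of PBS 2 to 6, selumetinib 1 and 2 were both below in 13 of 15 reactive genes, the exceptions being Lcn2 and Amigo2, and selumetinib 3 was within it in 13 of 15 (Emp1 was below and Amigo2 above). The share of all genes outside this range was not counted, so whether these counts are particular to reactive genes is not known. Selumetinib 1 and 2 differed from PBS in many genes, and 21.6% of all genes were called without selumetinib 3. Vim had 364, 318 and 1234 CPM in selumetinib 1 to 3, against 842, 1498 and 2019 CPM as the lowest, median and highest of the 6 PBS libraries. Serpina3n had 83.1, 70.0 and 227 CPM in selumetinib 1 to 3, against 60.9, 198 and 370.4 CPM as the lowest, median and highest of the 6 PBS libraries. Cp had 77.6, 59.2 and 252 CPM in selumetinib 1 to 3, against 102, 217 and 305 CPM as the lowest, median and highest of the 6 PBS libraries. Selumetinib 3 lay among the PBS libraries for all 3 genes. Osmr had 8.28, 5.79 and 18.5 CPM in selumetinib 1 to 3, against 14.6, 24.4 and 30.0 CPM as the lowest, median and highest of the 6 PBS libraries (log2 fold change -1.11 ± 0.36, adjusted p = 0.12, edgeR). The hyaluronan receptor gene Cd44 had 16.9, 23.5 and 37.3 CPM in selumetinib 1 to 3, against 30.9, 41.4 and 49.1 CPM as the lowest, median and highest of the 6 PBS libraries (-0.67 ± 0.24, adjusted p = 0.137). S1pr3 had 41.0, 38.4 and 104 CPM in selumetinib 1 to 3, against 63.0, 141 and 217 CPM as the lowest, median and highest of the 6 PBS libraries (-1.27 ± 0.46, adjusted p = 0.142). For each of these 3 receptor genes selumetinib 1 and 2 were below every PBS library and selumetinib 3 was within the PBS range. Lcn2 was an exception, low in all 3 selumetinib libraries (0.385 to 0.533 CPM), but PBS 2 had 0.335 CPM as well (-2.84 ± 0.87, adjusted p = 0.108, edgeR). Emp1 had 13.6, 14.5 and 42.7 CPM in selumetinib 1 to 3, against 46.3, 72.9 and 1582 CPM as the lowest, median and highest of the 6 PBS libraries, below PBS in every library (-3.93 ± 1.43, adjusted p = 0.144, edgeR), with PBS 1 far above the rest.

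Amigo2, an adhesion protein gene counted among the reactive genes and expressed by neurons too, was the exception upward. It had 54.3, 76.3 and 12.8 CPM in selumetinib 1 to 3, 9.40, 7.71 and 5.64 CPM in carboplatin 1 to 3 and 5.35, 7.78 and 12.7 CPM as the lowest, median and highest of the 6 PBS libraries. Selumetinib 1 and 2 were several times above all other libraries and selumetinib 3 was just above the highest PBS library (log2 fold change 2.45 ± 0.44, adjusted p = 0.0884, edgeR). The 8 neuron markers followed the same libraries, with none at 0, and their part in Amigo2 was not tested. Among the homeostatic genes, selumetinib 1 and 2 were both below PBS 2 to 6 in 10 of 20 (Gfap, Aqp4, Gja1, Gjb6, S100b, Sox9, Atp1b2, Glul, Id4 and Mlc1) and both above in 5 (Slc1a2, Aldoc, Fgfr3, Acsbg1 and Ntsr2). The share over all genes was not counted here either, so whether these counts are particular to homeostatic genes is not known. Gfap had 2121, 1698 and 6127 CPM in selumetinib 1 to 3, against 3162, 6758 and 9442 CPM as the lowest, median and highest of the 6 PBS libraries (log2 fold change -1.05 ± 0.47, adjusted p = 0.199, edgeR). Slc1a2 had 1384, 1287 and 532 CPM in selumetinib 1 to 3, against 94.2, 671 and 948 CPM as the lowest, median and highest of the 6 PBS libraries. Ntsr2 had 139.8, 169 and 65.5 CPM in selumetinib 1 to 3, against 19.5, 72.6 and 104 CPM as the lowest, median and highest of the 6 PBS libraries. Gfap was low and Slc1a2 high in selumetinib 1 and 2, and Gfap was 1.53, 1.32 and 11.5 CPM per CPM of Slc1a2 in selumetinib 1 to 3, against 6.05 to 33.6 in PBS. Selumetinib 3 lay within PBS 2 to 6 in 13 homeostatic genes and below in the other 7.

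Leaving out selumetinib 3 gave 1 homeostatic gene called higher (Fgfr3) and 1 lower (Gfap), and 1 reactive gene higher (Amigo2) and 8 lower (Vim, Cd44, Osmr, S1pr3, Cp, Srgn, Ptx3 and Tm4sf1), with 4089 genes called in all (21.6%). Leaving out PBS 1 alone gave 0 homeostatic and 0 reactive genes, and 0 genes in all. Without PBS 1, selumetinib 1 and selumetinib 2, 0 members were called, and the log2 fold change of Fgfr3 was -0.01, against 0.91 ± 0.24 with all libraries (adjusted p = 0.0889, edgeR). The oligodendrocyte markers summed to 27918 and 19207 CPM in selumetinib 1 and 2 and to 65696 CPM in selumetinib 3, against 28561 to 69757 CPM in PBS. Their median log2 fold change was -0.62, 12 of 12 were negative, and 0 had an unadjusted p under 0.05. The endothelial markers summed to 133, 187 and 275 CPM in selumetinib 1 to 3, against 239 to 547 CPM in PBS. Other marker lists were low in the same libraries, in a comparison where 24.0% of all genes had an unadjusted p under 0.05. The pericyte and smooth muscle markers summed to 119.7, 121 and 262 CPM in selumetinib 1 to 3, against 195 to 560.5 CPM in PBS (median log2 fold change -1.08, 7 of 7 negative, 4 with an unadjusted p under 0.05). The fibroblast and meningeal markers summed to 938, 690.2 and 3187 CPM in selumetinib 1 to 3, against 2012 to 3327 CPM in PBS (median -0.77, 8 of 8 negative, 0 at that p). The microglia and macrophage markers summed to 656, 541 and 1138 CPM in selumetinib 1 to 3, against 629.7 to 1363 CPM in PBS (median -0.56, 11 of 11 negative, 2 at that p). Selumetinib 3 lay within the PBS range for these lists and for the endothelial markers, and none of their genes was at 0 in every library of a group or was called by edgeR. The part of neuron RNA and of these other cells in the lower reactive genes was not tested. None of the other lists held a gene called by edgeR in selumetinib against PBS, where 0 of all 18344 genes were called. The 20 other reactive genes tested had a median log2 fold change of -1.02, with an unadjusted p under 0.05 in 10, all lower. The 36 other astrocyte genes had a median of 0.06, with 4 higher and 3 lower at that p. The median was -0.36 over the 12 gp130 and STAT3 genes, with 0 higher and 3 lower at that p, and -0.21 over the 7 angiotensin system genes, with 0 at that p.

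The 2 drugs were compared directly, without the PBS libraries as one side. Carboplatin was higher than selumetinib in 5 homeostatic genes and lower in 0, and higher in 2 reactive genes and lower in 1, where 5.65% of all genes were called higher and 8.35% lower. The median log2 fold change was 0.78 over the homeostatic genes and 1.30 over the reactive genes, beside -0.01 over all genes tested. Every carboplatin library lay above every selumetinib library in 11 homeostatic and 7 reactive genes, as in 20.9% of all genes, and below in 1 of each, as in 20.8%. The homeostatic genes were Agt (1.95 ± 0.37, adjusted p = 0.0137, edgeR), Htra1 (1.37 ± 0.30, adjusted p = 0.0194), Glul (1.25 ± 0.28, adjusted p = 0.0216), Id4 (1.63 ± 0.46, adjusted p = 0.0403) and Aldh1l1 (0.99 ± 0.30, adjusted p = 0.0485). Glul had 3855, 2495 and 3836 CPM in carboplatin 1 to 3, against 1362, 1277 and 1646 CPM in selumetinib 1 to 3. Id4 had 439.5, 579.6 and 552 CPM in carboplatin 1 to 3, against 138, 114 and 253 CPM in selumetinib 1 to 3. The drugs did not overlap in either gene. Exons of Glul overlap those of Teddm2 on the opposite strand and Mir8114 on the same strand, and those of Id4 overlap A330033J07Rik and Gm49291, both on the opposite strand.

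Lcn2 had the largest difference of the 35 genes, 26.1 ± 17.4 CPM in carboplatin and 0.447 ± 0.0764 CPM in selumetinib (SD, n = 3 each), a log2 fold change of 5.85 ± 1.04 (adjusted p = 0.0122, edgeR). Osmr averaged 33.8 ± 5.35 CPM in carboplatin and 10.8 ± 6.72 CPM in selumetinib (1.64 ± 0.41, adjusted p = 0.0287). Amigo2 averaged 7.58 ± 1.88 CPM in carboplatin and 47.8 ± 32.2 CPM in selumetinib (-2.66 ± 0.56, adjusted p = 0.0185), and its exons overlap those of Pced1b on the opposite strand. In these 3 genes the drugs did not overlap. Serpina3n (1.88 ± 0.61, adjusted p = 0.0628), Vim (1.51 ± 0.50, adjusted p = 0.0649) and S1pr3 (1.42 ± 0.51, adjusted p = 0.0815) were apart as well and were not called by edgeR. Neutrophils also make Lcn2, and their 8 markers summed to 5.18 to 61.4 CPM in carboplatin and 4.12 to 11.3 CPM in selumetinib. Of these markers 1, Ltf, was called higher in carboplatin (4.54 ± 1.17, adjusted p = 0.0317, edgeR). The log2 fold change was positive in 4 of the 8 and negative in 4. The part of neutrophils in Lcn2 was not tested. Of the other reactive genes, 4 were higher in carboplatin (Fkbp5, Slc10a6, Hspb1 and Cd109) and 0 lower among 20 tested, and of the other astrocyte genes 4 (Fam107a, Apoe, Sdc4 and Clu) and 0 lower among 36. Over all genes 5.65% were called higher and 8.35% lower. Of 12 gp130 and STAT3 genes tested, 2 were higher, Il6ra (1.63 ± 0.34, adjusted p = 0.0178), a receptor for interleukin 6, and Cntfr (0.87 ± 0.14, adjusted p = 0.00922), and of 7 angiotensin system genes 1 was lower, Atp6ap2 (-0.66 ± 0.15, adjusted p = 0.0222), the prorenin receptor.

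The calls between the drugs moved with single libraries. Without selumetinib 1, or without selumetinib 2, 0 members were called, where 0.711% and 0.787% of all genes were; without selumetinib 3 the calls were 5 homeostatic genes and 11 reactive genes, where 25.3% of all genes were called. Without carboplatin 1, or without carboplatin 3, 0 homeostatic genes and 1 reactive gene were called (1.56% and 1.14% of all genes), and without carboplatin 2 the calls were 3 homeostatic genes and 1 reactive gene (2.52%). Without PBS 1, which enters through the shared spread, they were 11 homeostatic and 7 reactive genes, where 33.0% of all genes were called, against 14.0% with all libraries. Without PBS 2, 4, 5 or 6 they were 3 homeostatic and 3 reactive genes in each fit, where 1705 to 2197 genes were called in all. Without PBS 1, selumetinib 1 and selumetinib 2, the calls were Agt (2.10, adjusted p = 0.00462, edgeR) and Aldoc. The neuron markers summed to 238 to 323 CPM in carboplatin, against 312 to 1839.8 CPM in selumetinib. Of these 8 markers 6 were called lower, as 8.35% of all genes were. Of 10 photoreceptor and pigment epithelium markers 7 were called higher and 0 lower, where 5.65% of all genes were called higher. In all 10 every carboplatin library was above every selumetinib library, as in 20.9% of all genes. Of 7 Müller glia markers tested 3 were called higher and 0 lower, and 4 log2 fold changes were positive and 3 negative. The part of neuron RNA and of retinal RNA in these results was not tested.

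The balance of the 2 classes was described by their summed CPM. The homeostatic genes summed to 22107, 25863 and 22063 CPM in carboplatin 1 to 3, to 10576, 9726 and 14417 CPM in selumetinib 1 to 3, and to 6643 CPM in PBS 1 and 15630.2 to 19263 CPM in PBS 2 to 6. All carboplatin sums were above all others. The reactive genes summed to 3094, 3334 and 3232 CPM in carboplatin 1 to 3 and to 728, 666 and 2095 CPM in selumetinib 1 to 3, against 1830.0 to 3294 CPM in PBS. Per 100 CPM of homeostatic genes, reactive genes made 14.0, 12.9 and 14.7 CPM in carboplatin 1 to 3, 6.88, 6.84 and 14.5 CPM in selumetinib 1 to 3, and 11.2 to 18.5 CPM in PBS 2 to 6, with 43.4 CPM in PBS 1. The carboplatin libraries and selumetinib 3 lay within PBS 2 to 6, and selumetinib 1 and 2 lay below. Gfap made 33.8 to 46.7% of the homeostatic sum in carboplatin, 17.5 to 42.5% in selumetinib and 36.7 to 49.7% in PBS. Vim made 52.7 to 62.9% of the reactive sum in carboplatin, 47.8 to 58.9% in selumetinib, 58.9 to 66.0% in PBS 2 to 6 and 29.2% in PBS 1. The sums and their ratio therefore depend strongly on these 2 filament genes. Reactive astrocytes raise both, and vessel and meningeal cells also make Vim.

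**Figure D4:**
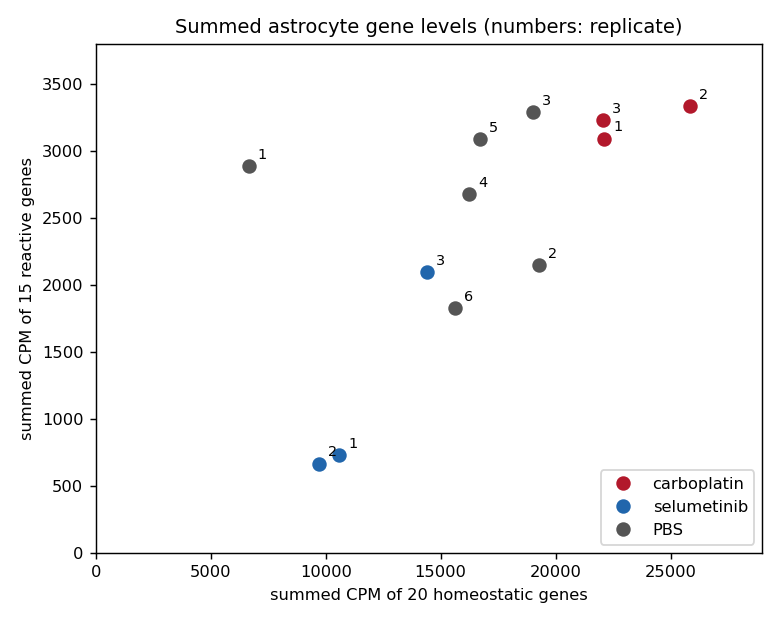
Summed CPM of the 20 homeostatic genes (horizontal axis) against that of the 15 reactive genes (vertical axis); each point is 1 of the 12 libraries, numbered by replicate. The carboplatin libraries lie farthest right at 22063 to 25863 CPM, selumetinib 1 and 2 lowest at 728 and 666 CPM, and PBS 1 farthest left at 6643 CPM.

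Dividing by the geometric mean of the other homeostatic genes in the same library gave a measure in which a change shared by these genes cancels. The ratio was taken only for the members called in these same libraries. The divisor holds genes that were higher with carboplatin, and Glul and S100b, which oligodendrocytes express too. For Agt this ratio was 2.03, 1.74 and 1.93 in carboplatin 1 to 3, against 0.870, 0.770 and 0.674 in selumetinib 1 to 3 and 0.690 to 0.875 in PBS, PBS 1 included at 0.773. Agt was apart on this scale too, with PBS 1 inside its group. Agt was taken for its rise in these libraries, so the ratio describes that rise and is not a separate test of it. Aldh1l1 had 0.231 to 0.250 in carboplatin, against 0.182 to 0.214 in selumetinib and 0.132 to 0.230 in PBS, where PBS 1 was the highest, so the groups barely separated. Htra1 had 0.305 to 0.610 in carboplatin, against 0.243 to 0.281 in selumetinib and 0.157 to 0.516 in PBS, overlapping with PBS 1 and with no other PBS library. Lcn2 had 0.0195 to 0.0829 in carboplatin, against 0.00119 to 0.00171 in selumetinib and 0.000837 to 0.0181 in PBS. On this scale Glul had 5.26 to 8.13 in carboplatin, against 4.40 to 5.53 in selumetinib and 4.81 to 9.69 in PBS, overlapping with both. Id4 had 0.808 to 1.13 in carboplatin, against 0.347 to 0.772 in selumetinib, with no overlap, and 0.662 to 1.22 in PBS, with overlap. Osmr had 0.0533 to 0.0743 in carboplatin, against 0.0185 to 0.0570 in selumetinib and 0.0365 to 0.176 in PBS, overlapping with both. Amigo2 had 0.0108 to 0.0175 in carboplatin, against 0.0396 to 0.244 in selumetinib, with no overlap, and 0.0154 to 0.0570 in PBS, with overlap. Of the 8 members called between the drugs, Glul and Osmr were not apart on this scale.

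PBS 4 to 6 were also set against PBS 1 to 3, since the sample list gives carboplatin after the first 3 PBS libraries and selumetinib after the last 3, and the labels do not call either a batch. Of all genes 1 was called (0.00545%), lower in PBS 4 to 6, and it was not a member. At an unadjusted p under 0.05, which 15.9% of all genes had, Htra1 and Lcn2 were higher in PBS 4 to 6, and Emp1 and Steap4 were lower. Htra1 had 109, 85.5 and 108 CPM in PBS 4 to 6, against 65.7, 72.0 and 59.8 CPM in PBS 1 to 3, and the sets did not overlap. Lcn2 had 5.66, 6.60 and 3.65 CPM in PBS 4 to 6, against 1.86, 0.335 and 1.31 CPM in PBS 1 to 3, also without overlap. Emp1 had 50.0, 65.7 and 46.3 CPM in PBS 4 to 6, against 1582, 80.0 and 337 CPM in PBS 1 to 3, and Steap4 had 2.71, 2.68 and 2.19 CPM in PBS 4 to 6, against 33.5, 1.76 and 11.2 CPM in PBS 1 to 3, an overlap through PBS 2. Carboplatin values of Htra1 and Lcn2 were above both sets.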

How the data were processed

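RNA from mouse optic nerve was measured in 12 libraries, grouped by the treatment label. The values deposited by the authors are raw counts of reads for each Ensembl gene, 21793052 to 33375754 counts per library. Build mm10 and the tools HTSeq, STAR, Trimmomatic, FastQC and DESeq2 are named per the submitters' processing notes. Versions, the annotation, the strand setting and any filter are not given in the sources used here. Column abbreviations were read as the treatment labels with the same replicate numbers.

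Genes were kept with filterByExpr (minimum count 10, minimum total 15), which left 18344 of 35275. TMM factors scaled the libraries, and the test was that of edgeR 4.0.16 under R 4.3.3 (quasi-likelihood with a robust fit) in 1 model of 3 groups over all libraries, with Benjamini-Hochberg adjustment over all genes tested. The common dispersion was 0.272. The check of the controls split PBS into PBS 4 to 6 and PBS 1 to 3 in the same kind of model. The 3 libraries of each drug limit the precision. The test was checked on simulated counts. Alternatives were DESeq2 1.42.0, limma voom 3.58.1 with quality weights, upper-quartile and RLE factors, an unfiltered table, only the groups compared, either set of PBS libraries as controls, the replicate number as a term, each library left out in turn, and fits without PBS 1, selumetinib 1 and selumetinib 2 or without carboplatin 1 and 3.

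Coordinates, exon lengths and exon overlaps came from GENCODE M21 (GRCm38, equal to mm10), and promoters from RefSeq tables of GRCm38.p6. Exons of 8 of the 35 genes overlap those of another gene. The 35 genes, the other lists and the tests were chosen with earlier results of these data known. Any of the 35 may be named; of other lists, genes called in a comparison and up to 3 with the smallest p were allowed. The 35 genes are named with a log2 fold change only where the unadjusted p was under 0.05.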

Additional observations from a re-analysis of the deposited data

Results flagged for a closer look

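In PBS, 10 of the 35 genes had 1 library farther from the others than Dixon's 95% critical value for 6 samples allows, 8 low and 2 high. By chance about 1 in 20 groups would be marked, and the genes of 1 library are not independent. All 10 were in PBS 1.

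The low values were those of homeostatic genes. Aqp4 had 205 CPM in PBS 1, against at least 549 CPM in the other PBS libraries, Slc1a3 had 162 CPM, against at least 643 CPM, and Gja1 had 158 CPM, against at least 470.1 CPM. Sox9 had 50.1 CPM, against a PBS median of 113 CPM, Slc4a4 had 45.0 CPM, against at least 210.3 CPM, and Atp1b2 had 377 CPM, against at least 1076 CPM. Glul had 1067 CPM, against at least 1741 CPM, and Agt had 96.6 CPM, against at least 266 CPM. The high values were those of the reactive genes Steap4, with 33.5 CPM in PBS 1 and at most 11.2 CPM in the other PBS libraries, and Emp1, with 1582 CPM and at most 337 CPM. PBS 1 is also the library in which muscle markers summed to 51439 CPM, and the part of muscle RNA in these values was not tested.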

How the results depend on the processing

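The values here are numbers of genes called in either direction, given as all genes, homeostatic genes and reactive genes in that order. For carboplatin over PBS (383, 3 and 0) DESeq2 called 1574, 6 and 1, limma voom 5470, 10 and 5, PBS 4 to 6 as controls gave 2202, 5 and 1, PBS 1 to 3 gave 7, 0 and 0, and the fit without PBS 1, selumetinib 1 and selumetinib 2 gave 3073, 9 and 1 (Cd44, lower). Without carboplatin 1 and 3 the numbers were 14, 0 and 0, and leaving out 1 library gave 73 to 1941, 1 to 7 and 0 to 1. For selumetinib over PBS (0, 0 and 0) DESeq2 called 2401, 1 and 8, limma voom 10165, 15 and 13, PBS 1 to 3 as controls gave 3, 0 and 0, and leaving out 1 library gave 0 to 4089, 0 to 2 and 0 to 9. For carboplatin over selumetinib (2568, 5 and 3) DESeq2 called 4714, 9 and 7, limma voom 10788, 14 and 15, PBS 4 to 6 as controls gave 5641, 11 and 8, PBS 1 to 3 gave 97, 0 and 1, and the fits without PBS 1, selumetinib 1 and selumetinib 2 and without carboplatin 1 and 3 gave 516, 2 and 0 and 11, 0 and 0. Upper-quartile factors gave 3 homeostatic genes there and only the groups compared gave 8, and leaving out 1 library gave 134 to 5974, 0 to 11 and 0 to 11. The cause of these differences was not tested.

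With the replicate number as a block, carboplatin over PBS gave 5 genes, 0 homeostatic and 0 reactive, selumetinib over PBS 2, 0 and 0, and carboplatin over selumetinib 50, 0 and 1 (Lcn2). The labels do not say that a number pairs libraries: deviations of same-numbered libraries correlated by -0.125 to 0.379, and 4, 3 and 2 of 6 libraries in the 3 pairs of groups correlated best with their own number.

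No called member changed direction in any alternative. Of the uncalled members with an unadjusted p under 0.05, 1 did, Fgfr3 in selumetinib over PBS, at -0.01 without PBS 1, selumetinib 1 and selumetinib 2. Of those with an unadjusted p of 0.05 or more, 11 of 25, 14 of 23 and 10 of 17 changed sign in some alternative. With 3 libraries of each drug, a gene that was not called may still differ.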
